A study of Homo sapiens with 9 samples.

Results

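The 9 genes described here belong to interferon signalling and were followed through 9 RNA-seq libraries of PC-3 cells, a long-established line from a human prostate carcinoma. The genes were listed by name, with no threshold on a measured value, and earlier results of these data were known when they were chosen. They are the kinases JAK1 and TYK2, the transcription factors STAT2, STAT3, IRF1, IRF7 and IRF9, and the inhibitors SOCS1 and SOCS3. These are 9 of the 60617 gene identifiers in the count files, and 8 of them were among the 18532 genes with enough counts to be tested. STAT3 was the exception.
The libraries fell into 3 groups of 3. Controls (Ctrl) received vehicle, Dec cells received 1 µM of decitabine, and Dec_Sam cells received 1 µM of decitabine with 200 µM of S-adenosylmethionine (SAM), referred to here as the combination treatment. Decitabine is an analogue of deoxycytidine that traps DNA methyltransferases and so lowers DNA methylation, and SAM is the methyl donor of these enzymes. The labels give 5 days of treatment for all groups, and the doses are those of the study's methods. All groups share the line, which stands for 1 tumour only, and the effect of SAM on its own was not analysed here. Nothing in the labels says that the 3 libraries of a group came from separate cultures, so p-values measure the spread between these libraries, which may be technical.
Each library held between 21934307 and 22489684 estimated counts. Levels are given as CPM, counts divided by library size, after TMM scaling, which corrects each library for its composition, with the SD of 3 libraries. The quasi-likelihood test of edgeR was run over all 9 libraries, and a gene was called higher or lower where the p-value adjusted over all genes tested (Benjamini-Hochberg) was under 0.05. Across all 18532 genes the median log2 fold change was 0.035 in Dec against Ctrl, 0.048 in Dec_Sam against Ctrl and 0.0021 in Dec_Sam against Dec, and scaling by library size alone moved it to 0.28, 0.27 and -0.023. The line's epithelial markers were present in every library, with EPCAM at 15.8 to 18.2 CPM in the controls and 16.4 to 25.6 CPM in the treated libraries and KRT8 at 107 to 127 CPM in the controls, 254 to 274 CPM with decitabine and 201 to 217 CPM with the combination treatment. VIM, a mesenchymal marker that PC-3 cells also express, was at 1220 to 1310 CPM in the controls, 524 to 639 CPM with decitabine and 476 to 547 CPM with the combination treatment. Unlike KRT8, the keratins KRT18 and KRT19 were lower in every treated library than in any control. KRT18 ranged over 396 to 445 CPM (Ctrl), 340 to 376 CPM (Dec) and 293 to 350 CPM (Dec_Sam). The ranges of KRT19 were 337 to 381 CPM (Ctrl), 233 to 253 CPM (Dec) and 198 to 260 CPM (Dec_Sam). KLK3, the prostate-specific antigen that PC-3 cells lack, had 0 counts throughout.

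Type I interferons bind a receptor that carries JAK1 and TYK2, and these kinases phosphorylate STAT proteins. Phosphorylated STAT2 joins another STAT protein and IRF9 in a complex that binds interferon-stimulated response elements (ISRE) and switches on antiviral genes. Interferon gamma acts through gamma-activated sites (GAS), where IRF1 is an early target gene. IRF7 drives the transcription of interferon genes and is itself induced by interferon, and SOCS1 and SOCS3 bind the receptors and kinases and shut the signal off. STAT3 is best known as the factor that answers cytokines of the interleukin 6 family.

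Promoter sequence is shown for the 3 members whose promoter window held 1 of the 2 motifs through which this pathway acts. RefSeq sequence of the GRCh38 assembly was at hand for 8 of the 9 members, in 11 windows from 250 bases before to 50 bases after a transcription start, and IRF7 had none. The core of the ISRE was searched as GAAANNGAAA and that of the GAS as TTCNNNGAA, on both strands. Of 35116 promoter windows of this length, 3.57% held the first and 7.66% the second. The 250 bases before the start follow, read 5′ to 3′ on the strand of the gene, with the match in capitals. IRF1 (chr5:132490774-132491023, minus strand) and IRF9 (chr14:24161015-24161264, plus strand) hold a GAS core, and SOCS1 (chr16:11256205-11256454, minus strand) holds an ISRE core.
IRF1: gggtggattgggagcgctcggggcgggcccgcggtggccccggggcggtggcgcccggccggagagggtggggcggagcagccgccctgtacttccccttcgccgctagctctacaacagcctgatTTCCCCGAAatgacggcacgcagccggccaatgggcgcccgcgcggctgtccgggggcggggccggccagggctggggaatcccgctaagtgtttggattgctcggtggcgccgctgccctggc
IRF9: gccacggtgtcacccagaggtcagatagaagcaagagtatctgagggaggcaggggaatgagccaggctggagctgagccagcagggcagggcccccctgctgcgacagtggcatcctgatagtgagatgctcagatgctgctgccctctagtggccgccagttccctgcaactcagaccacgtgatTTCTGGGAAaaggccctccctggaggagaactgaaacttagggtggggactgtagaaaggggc
SOCS1: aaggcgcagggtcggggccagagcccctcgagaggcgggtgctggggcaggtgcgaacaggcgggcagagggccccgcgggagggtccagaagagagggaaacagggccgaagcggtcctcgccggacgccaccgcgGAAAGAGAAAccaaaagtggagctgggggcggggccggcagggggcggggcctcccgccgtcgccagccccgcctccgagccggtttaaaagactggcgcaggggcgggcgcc
Counted from the transcription start, the match lies at -124 to -116 in IRF1, at -63 to -55 in IRF9 and at -113 to -104 in SOCS1. The windows of JAK1, TYK2, STAT2, STAT3 and SOCS3 held neither string of letters, which says nothing about the factors that bind there. The 300-base windows also differed in CpG sites, the positions that DNA methyltransferases act on. IRF1 had 36 and SOCS1 33, against a median of 14 over all windows, while IRF9 had 7. TYK2 had 24, STAT2 25 and STAT3 23. The windows of JAK1 had 15, 9 and 43, and those of SOCS3 had 17 and 34. Methylation of these windows was not measured in the libraries.

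STAT3 (ENSG00000168610, chromosome 17, 42313324 to 42388540 on GRCh38, minus strand) had 0 counts in each of the 9 libraries. A count of 0 allows up to 3 counts, or 0.15 CPM in the smallest library. The gene was therefore not tested, and no treatment effect on it can be stated. The lack of counts extended to its neighbours. STAT3 lies in a run of 11 neighbouring protein-coding genes (DHX58, KAT2A, HSPB9, RAB5C, KCNH4, HCRT, GHDC, STAT5B, STAT5A, STAT3 and CAVIN1) that all had a mean under 10 counts per library. The run spans 322 kb, from 42101404 to 42423256. In 6 of its genes no library had a count, and the largest count of any of them in any library was 4. RAB5C, a GTPase of early endosomes, and KAT2A, a histone acetyltransferase, are genes that most cells use, and they had at most 2 and 0 counts.
Most genes on either side were expressed. Among the 10 next genes on each side, 19 of 20 had a mean of at least 10 counts over the 9 libraries. KLHL10 was the exception at 3. ACLY, which makes cytosolic acetyl-CoA, had a mean of 5060 counts and COASY, which makes coenzyme A, 2740. Just outside the run lay ZNF385C at a mean of 14.5 and ATP6V0A1 at 10.6. In the controls alone ZNF385C had a mean of 3.34, ATP6V0A1 6.65 and HSD17B1, another of the 20, 8. These genes reached 10 counts through the treated libraries, so the edges of the run depend on them. Genes with few counts are common, since 27.7% of 19338 protein-coding genes had a mean under 10 and 7.1% had 0 counts. Counted in neighbouring genes and not in kb, 36 runs in the genome were at least as long, this run included. The run was described after the value of STAT3 had been seen. DNA was not measured, and the cause was not tested.

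**Figure D1:**
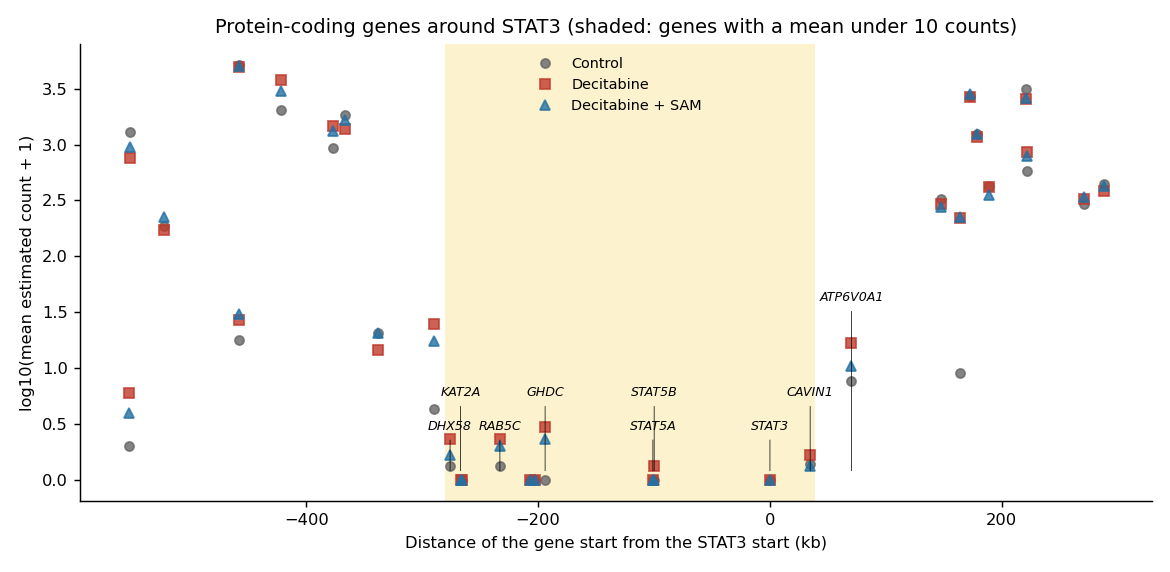
Mean estimated count per library, as log10 of the count plus 1, against the distance of each protein-coding gene's start from the start of STAT3, in kb. Each gene has 3 symbols (control, decitabine, decitabine with SAM). The shaded run of 11 genes around STAT3 lies at or near 0 in all groups. Over all 9 libraries, 19 of the 20 flanking genes had a mean of at least 10 counts.

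The first comparison asked what decitabine alone did to the pathway. All 8 tested members were called in Dec against Ctrl: 7 were higher and TYK2 was lower. Over all genes tested, 68.8% were called in this comparison, 36.3% higher and 32.5% lower. The groups did not overlap for any of the 8 members, which held for 72.9% of all genes. The median log2 fold change of the 8 members was 1.66. The largest increases were in IRF7, SOCS1, IRF9 and STAT2, and the kinases changed least.
The next comparison set the combination treatment against decitabine and so asked what the addition of SAM changed. Of the 8 members, 6 were lower with the combination treatment (JAK1, STAT2, IRF1, IRF7, IRF9 and SOCS1) and 0 were higher, against 8.02% lower and 7.67% higher of all genes tested. Without adjustment, 0 members were higher at p under 0.05, and DESeq2 and limma with voom also called 0 higher and 6 lower. TYK2 and SOCS3 were not called. The median log2 fold change was -0.91. In 7 of 8 members the groups did not overlap, against 34.0% of all genes.
Against the controls, the combination treatment left 3 members higher (IRF7, IRF9 and SOCS1) and 1 lower (TYK2), where 35.9% of all genes were higher and 31.3% lower. JAK1, STAT2, IRF1 and SOCS3 were not called. Of the 8 members, 4 had no overlap between these groups, against 71.6% of all genes. The 3 comparisons share their libraries in pairs, so their values for a gene are not independent.

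**Figure D2:**
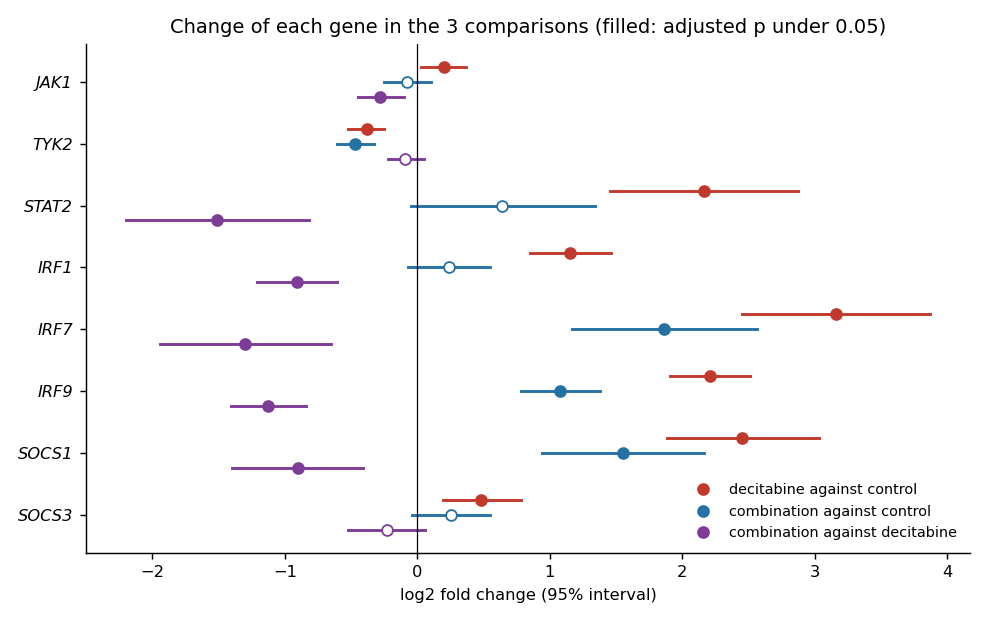
Log2 fold change of the 8 tested members with its 95% interval in the 3 comparisons; filled symbols passed an adjusted p of 0.05. Decitabine against control lies to the right of 0 for all but TYK2, and the combination against decitabine lies to the left of 0 for all 8, with the intervals of TYK2 and SOCS3 crossing 0.

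JAK1 (chromosome 1, 64833223 to 65067754), the kinase that serves most interferon and interleukin 6 family receptors, stood at 153, 169 and 170 CPM in the controls. It reached 190, 193 and 182 CPM with decitabine and 143, 150 and 174 CPM with the combination treatment. All decitabine libraries lay above all others, while controls and combination libraries overlapped. Decitabine raised JAK1 by 0.20 on the log2 scale (SE 0.08, adjusted p = 0.038). The combination treatment lay lower than decitabine (log2 fold change -0.28, SE 0.08, adjusted p = 0.033) and did not differ detectably from the controls (log2 fold change -0.08, 95% interval -0.25 to 0.10). These small changes were not stable: the call in Dec against Ctrl was lost in 6 of 9 fits that left out 1 library (0.14 to 0.22), that in Dec_Sam against Dec in 5 of 9 (-0.36 to -0.22), and the first also without the filter on low counts (0.16, adjusted p = 0.12). The libraries whose omission ended the first call were Ctrl 1, 2 and 3, Dec 1 and 2 and Dec_Sam 2, and for the other call they were Ctrl 2, Dec 1 and 2 and Dec_Sam 1 and 2.
TYK2 (chromosome 19, 10350533 to 10380608), the kinase bound to the first chain of the type I receptor, went the other way. It had 158, 157 and 148 CPM in the controls, 119, 114 and 121 CPM with decitabine and 109, 110 and 115 CPM with the combination treatment. Every treated library lay below every control, and the treated groups overlapped. TYK2 fell by 0.38 on the log2 scale with decitabine (SE 0.06, adjusted p = 9.5e-05) and by 0.47 with the combination treatment (adjusted p = 1.5e-05). Between the treatments the log2 fold change was -0.09, with an interval of -0.22 to 0.05. The decrease with decitabine depended on the scaling, since with library size alone it was -0.14 and was not called (adjusted p = 0.075).

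STAT2 (chromosome 12, 56341597 to 56360203) is the STAT protein particular to type I and type III interferon receptors. Its level was 67.2, 58.1 and 52.9 CPM in the controls and 294, 240 and 260 CPM with decitabine. With the combination treatment it was 66.9, 71.3 and 140 CPM. The decitabine libraries were all far above the rest, replicates 1 and 2 of the combination treatment lay within or just above the control range, and replicate 3 lay between. STAT2 rose 4.46-fold with decitabine (log2 fold change 2.16, SE 0.30, adjusted p = 0.00048) and was lower in Dec_Sam than in Dec (log2 fold change -1.51, SE 0.29, adjusted p = 0.017). The combination treatment against control gave 0.64, with an interval of -0.05 to 1.34 (adjusted p = 0.09). That comparison crossed the threshold with library size alone (0.87, adjusted p = 0.038), with voom and limma (0.57, adjusted p = 0.04) and without Dec_Sam replicate 1 (0.82, adjusted p = 0.043).

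IRF9 (chromosome 14, 24161234 to 24168043), the DNA-binding partner of STAT2, had 25.8, 25.7 and 18.9 CPM in the controls. Decitabine brought it to 123, 105 and 96.9 CPM, and the combination treatment to 46.1, 45.4 and 57.5 CPM. The 3 groups were separate, with the combination treatment in the middle. IRF9 rose 4.62-fold with decitabine (log2 fold change 2.21, SE 0.14, adjusted p = 5.1e-08) and 2.12-fold with the combination treatment (1.08, adjusted p = 2.2e-05). Between the treatments it changed by -1.13 on the log2 scale (SE 0.13, adjusted p = 6e-04), and it was called in all 9 fits that left out 1 library (-1.24 to -1.03). IRF9 shares 1544 of its 6471 exon bases with a protein-coding gene on the same strand (ENSG00000259529), so part of its counts could belong to that gene.
IRF7 (chromosome 11, 612553 to 615983) gave the largest change of the members. Its level was 19.2, 19.4 and 13.6 CPM in the controls, 146, 153 and 167 CPM with decitabine, and 46.9, 50.1 and 92.7 CPM with the combination treatment. Again no groups overlapped and the combination treatment lay in the middle. The increase was 8.93-fold with decitabine (log2 fold change 3.16, SE 0.30, adjusted p = 5.4e-05) and 3.64-fold with the combination treatment (1.86, SE 0.29, adjusted p = 0.00094). Between the treatments IRF7 differed by -1.30 (SE 0.27, adjusted p = 0.022).
IRF1 (chromosome 5, 132440440 to 132508719), whose promoter sequence with its GAS core is printed above, had 16.5, 18.1 and 15.1 CPM in the controls and 40.1, 37.4 and 32.9 CPM with decitabine. With the combination treatment it had 17.6, 16.5 and 24.7 CPM. Decitabine libraries were all above the others, and controls overlapped with the combination libraries. The log2 fold change was 1.15 with decitabine (SE 0.14, adjusted p = 8.4e-06) and 0.24 with the combination treatment (interval -0.07 to 0.55, adjusted p = 0.15), and between the treatments it was -0.91 (SE 0.14, adjusted p = 0.0018). The last was called in all 9 fits that left out 1 library (-1.11 to -0.80). IRF1 shares 2805 of its 12265 exon bases with the antisense transcript IRF1-AS1, and whether counting used the strand is not given in the sources used here.

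SOCS1 (chromosome 16, 11254417 to 11256204), an inhibitor that binds JAK kinases and is itself induced by interferon, was the member with the fewest counts after STAT3. The libraries held 18, 19 and 13 counts in the controls, 104, 109 and 111 with decitabine and 49, 39 and 81 with the combination treatment. As CPM these were 0.894, 0.951 and 0.642, then 4.4, 4.6 and 4.7, then 2.13, 1.72 and 3.45. The groups were separate in the same order as for IRF7 and IRF9. SOCS1 rose 5.48-fold with decitabine (log2 fold change 2.45, SE 0.27, adjusted p = 1.8e-06) and 2.93-fold with the combination treatment (1.55, adjusted p = 0.00022), and the treatments differed by -0.90 (SE 0.23, adjusted p = 0.018).
SOCS3 (chromosome 17, 78356778 to 78360077), the inhibitor best known as a target of STAT3, moved little. It had 29.8, 21.5 and 18.7 CPM in the controls, 30.5, 35.2 and 32.2 CPM with decitabine and 27.2, 26.9 and 29.4 CPM with the combination treatment. Control replicate 1 lay within the range of the treated libraries. The increase with decitabine was 0.48 on the log2 scale (SE 0.14, adjusted p = 0.0063). The combination treatment gave 0.25 against control (interval -0.04 to 0.55) and -0.23 against decitabine (interval -0.52 to 0.06), neither of which was called. Without Ctrl replicate 1 the former was 0.46 and was called (adjusted p = 0.0017).

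**Figure D3:**
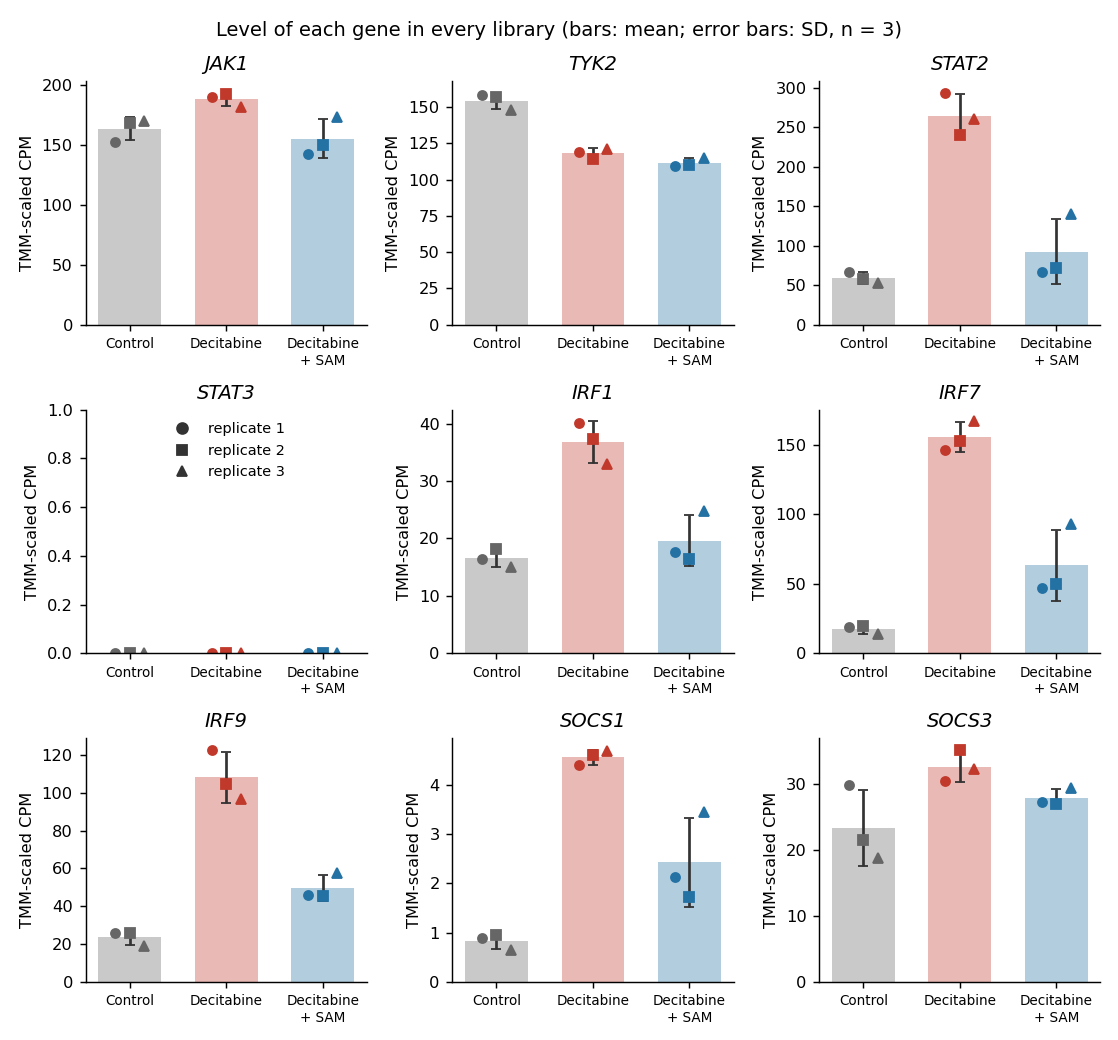
TMM-scaled CPM of the 9 genes in every library; bars are group means, error bars the SD of 3 libraries, and circles, squares and triangles are replicates 1, 2 and 3. For STAT2, IRF1, IRF7, IRF9 and SOCS1 the decitabine libraries stand above all others and replicate 3 is the highest of the combination libraries; STAT3 is at 0 throughout.

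Replicate 3 of the combination treatment stood apart from its group, and not in these genes alone. Over all genes, its chi-square per degree of freedom was 23.5 against replicate 1 and 15.1 against replicate 2. Replicates 1 and 2 had 5.86 between them. Replicates 1 and 3 gave 17 in the controls and 18 with decitabine. Combination replicate 3 was the highest of its group in 8 of 8 tested members, against 38.1% of all genes tested. When it was left out, the log2 fold change of Dec_Sam against Dec went from -1.51 to -1.94 in STAT2 (adjusted p = 3.3e-08), from -1.30 to -1.68 in IRF7 (adjusted p = 1.4e-06), from -0.90 to -1.24 in SOCS1 (adjusted p = 0.0012), from -0.91 to -1.11 in IRF1 and from -1.13 to -1.24 in IRF9. The same 6 members were lower, so the difference between the treatments was at least as large without this library. Against the controls without it, STAT2 stood at 0.22, IRF1 at 0.04, IRF7 at 1.48, IRF9 at 0.96 and SOCS1 at 1.21.
Other omissions cost calls. The number of members lower in Dec_Sam against Dec went from 6 to 3 without Dec replicate 1, and to 2, IRF1 and IRF9, without Dec replicate 2 or Dec_Sam replicate 1 or 2. STAT2 then had an adjusted p between 0.053 and 0.063, with log2 fold changes of -1.58 to -1.33. IRF7 lost its call in 5 of 9 fits, with Dec replicate 3 as the further library (-1.24, adjusted p = 0.054). SOCS1 lost it in 3 of 9 (-0.90 to -0.70). The direction of these changes was kept in each of the 9 fits.

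**Figure D4:**
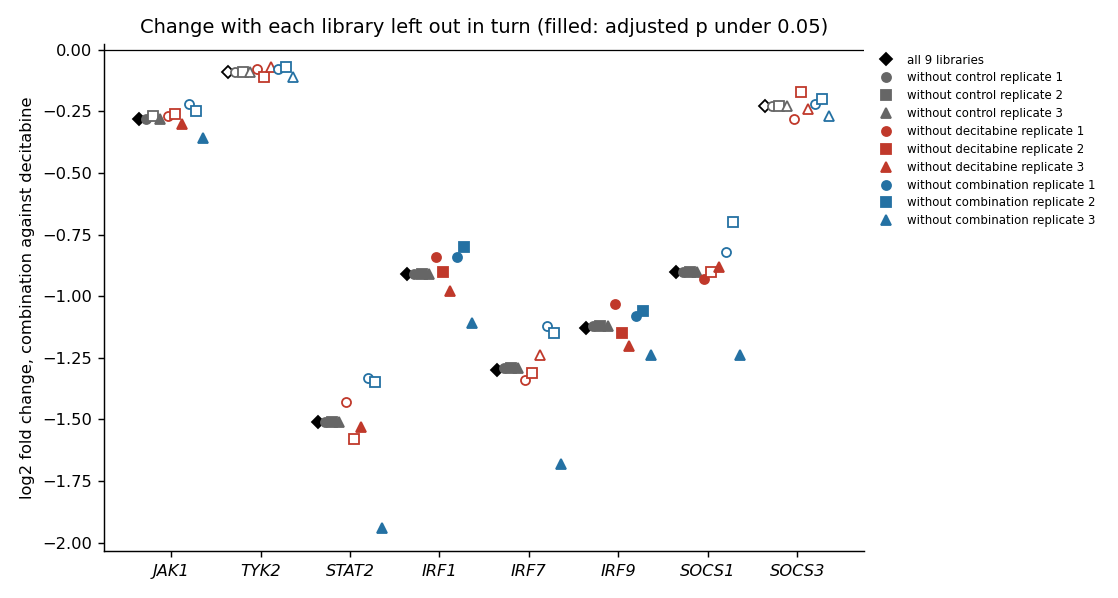
Log2 fold change of Dec_Sam against Dec for each tested member with all 9 libraries (diamonds) and with each library left out in turn; filled symbols passed an adjusted p of 0.05. STAT2, IRF7 and SOCS1 moved furthest from 0 without combination replicate 3, and IRF1 and IRF9 were called in every fit.

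The genes that act before, beside and after the members were followed as 7 lists. These were chosen by function, with earlier results of these data known. Targets of the complex of STAT2 and IRF9 moved most. All 28 listed antiviral genes were higher with decitabine (median log2 fold change 4.34), where 36.3% of all genes were, and DESeq2 called 27. In Dec_Sam against Dec, 23 were lower and 0 higher (median -2.12), against 8.02% and 7.67% of all genes. Of the 28, 0 were higher without adjustment and in DESeq2 or voom with limma, and 28 were lower without adjustment. Against the controls, 23 remained higher with the combination treatment (median 2.19), where 35.9% of all genes were higher. IFIT3, DDX60, HERC6, PARP9 and BST2 were the 5 that were not called there, named after their values were seen.
Their summed level was 878, 895 and 754 CPM in the controls, 11046, 10459 and 10250 CPM with decitabine and 1664, 1909 and 4718 CPM with the combination treatment. Combination replicate 3 was again the highest of its group, in 28 of 28 genes. EPSTI1, an interferon-induced gene, had the largest fitted change with decitabine. It went from 7 counts in the 3 controls together to 999, a ratio of 121 (95% counting interval 58.7 to 303), and was lower with the combination treatment (log2 fold change -2.30, SE 0.58, adjusted p = 0.039). MX1, a dynamin-like antiviral GTPase, had means of 21.3, 583 and 120 CPM in the 3 groups, and ISG15, a ubiquitin-like modifier, 96.8, 1290 and 393 CPM.
The count of 23 lower targets was sensitive to the libraries. It was 28 without Dec_Sam replicate 3 and 14 without Ctrl replicate 1 or 3. It was 11 without Ctrl replicate 2 or Dec replicate 3 and 6 without Dec_Sam replicate 1. It was 3 without Dec replicate 1, Dec replicate 2 or Dec_Sam replicate 2, and 4 when only the 6 libraries compared were fitted. The 23 targets higher than control with the combination treatment became 14 without Ctrl replicate 3.

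IRF1 targets include genes of antigen presentation and of the interferon gamma response. Their summed level was 751, 686 and 558 CPM in the controls, 913, 985 and 1007 CPM with decitabine and 491, 519 and 686 CPM with the combination treatment, so in sum the decitabine libraries were the highest and the combination libraries overlapped with or lay below the controls. WARS1, the tryptophanyl-tRNA synthetase, made up much of this sum, with a mean of 480 CPM in the controls. Of 16 tested, 14 were higher with decitabine and 1 was lower (median 3.52), against 36.3% and 32.5% of all genes. The 1 lower gene was WARS1, with -0.89 (adjusted p = 2.3e-05). In Dec_Sam against Dec 9 were lower and 0 higher (median -1.44), against 8.02% and 7.67% of all genes. In this list 0 were higher also without adjustment, in DESeq2 and in voom with limma. The count of 9 lower targets was 13 without Dec_Sam replicate 3 and 5 without Dec replicate 2. GBP1, a guanylate-binding protein, rose from 0.613 ± 0.16 to 44.4 ± 12.6 CPM with decitabine (log2 fold change 6.16, SE 1.29, adjusted p = 0.005). CXCL10, a chemokine that attracts T cells, had 71 counts in the 3 decitabine libraries together and 1 in the controls, and was lower with the combination treatment (log2 fold change -3.05, SE 0.54, adjusted p = 0.0031). Against the controls 9 IRF1 targets were higher (5 without Ctrl replicate 3) and WARS1 was lower at -1.12. Of all genes, 35.9% were higher and 31.3% lower there.
STAT3 targets were measured although STAT3 itself had no counts. Of 12 tested, 6 were higher and 3 lower with decitabine (median 0.22), where 68.8% of all genes were called, and the same numbers were called with the combination treatment against control (median 0.25). The largest change was in FGG, a fibrinogen chain, which went from 1 count in the controls to 31 with decitabine, a ratio of 26.4 with a counting interval of 4.4 to 1070. The 3 lower genes with decitabine were VEGFA (-0.97), PIM3 (-0.35) and MCL1 (-0.21), and without Ctrl replicate 1, Dec replicate 1 or Dec replicate 2 only 1 was called. Between the treatments, MCL1, an anti-apoptotic protein, was the 1 gene called (-0.30, adjusted p = 0.028), where 15.7% of all genes were. In this list 0 were called without Dec replicate 2 or 3 or Dec_Sam replicate 1 or 2.

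Among the other kinases, STAT proteins and interferon regulatory factors, 10 of 13 listed genes were tested, and STAT5A, STAT5B and IRF8 had at most 1 count in a library. With decitabine 8 were higher and 0 lower (median 0.64), 0 lower also without adjustment and in DESeq2 or voom with limma. Over all genes, 68.8% were called there, 36.3% higher and 32.5% lower. In Dec_Sam against Dec 4 of the list were lower and 0 higher, where 8.02% and 7.67% of all genes were. Of the list, 1 was higher without adjustment and 0 in DESeq2 and in voom with limma. Among the 4 lower genes were IRF2, a repressor at IRF1 sites (-0.85, adjusted p = 0.00059), STAT4, which serves interleukin 12 (-0.84, adjusted p = 0.039), and STAT6, which serves interleukin 4 (-0.70, adjusted p = 0.0016). Against the controls 6 of the list were higher with the combination treatment and 0 lower, 0 also without adjustment and in DESeq2 or voom with limma. Without Dec_Sam replicate 3, 2 were lower. Of all genes, 35.9% were higher and 31.3% lower in that comparison with all 9 libraries.
Of the 11 receptors, 4 were called with decitabine (median log2 fold change 0.02), where 68.8% of all genes were. The 3 higher ones were IFNGR1, a chain of the interferon gamma receptor (1.20, adjusted p = 3.1e-06), IL10RB, shared by the interferon lambda and interleukin 10 receptors (0.68, adjusted p = 1.9e-05), and IL6ST, the signal chain of the interleukin 6 family (0.47, adjusted p = 0.012). IFNAR1, a chain of the type I receptor, was the 1 lower (-0.29, adjusted p = 0.0047). With library size alone the receptor counts became 6 higher and 0 lower, so the number called in each direction depends on the scaling. Between the treatments OSMR, the oncostatin M receptor, was the 1 receptor called (-0.66, adjusted p = 0.0016), where 15.7% of all genes were. Without Dec_Sam replicate 3, 2 receptors were called.
Upstream of IRF7, 4 of 8 genes were higher and 1 lower with decitabine, a share called near the 68.8% of all genes. TLR3, a sensor of double-stranded RNA, went from 5 counts in the controls to 231, a ratio of 39.3 (95% counting interval 16.6 to 122). MYD88, an adaptor of the Toll-like receptors, rose from 57.9 ± 4.75 to 228 ± 6.85 CPM (log2 fold change 1.98, adjusted p = 4.4e-07), and IKBKE and TICAM1, a kinase and an adaptor that lead to IRF7, rose by 0.88 and 0.77. MAVS, the mitochondrial adaptor of the RNA sensors, was lower (-0.41, adjusted p = 0.00056), and it was not called with library size alone. In Dec_Sam against Dec, TLR3 (-2.35, adjusted p = 0.032) and MYD88 (-0.93, adjusted p = 0.0026) were lower, where 8.02% of all genes were. Without Dec_Sam replicate 3, 5 genes of the list were lower. Without Ctrl replicate 2, Dec replicate 2 or 3 or Dec_Sam replicate 1 or 2, 1 gene was lower.
Of the other inhibitors, 6 of 15 were higher and 5 lower with decitabine (median -0.03), near the 36.3% higher and 32.5% lower of all genes. USP18, which blocks the type I receptor, rose from 12.7 ± 0.409 to 100 ± 5.02 CPM (log2 fold change 2.98, SE 0.38, adjusted p = 0.00033) and was at 26.8 ± 15.2 CPM with the combination treatment (-1.91 against decitabine, adjusted p = 0.016). The 5 lower genes were CISH (-1.18), PIAS1 (-0.55), PIAS4 (-0.52), PTPN11 (-0.52) and PIAS2 (-0.50). Between the treatments SOCS2 (-0.44, adjusted p = 0.014) was lower beside USP18, and SOCS7 (0.47, adjusted p = 0.0074) and PTPN11 (0.21, adjusted p = 0.043) were higher. Of all genes, 8.02% were lower and 7.67% higher there. Neither USP18 nor SOCS2 was called without Dec replicate 2 or without Dec_Sam replicate 2, and 1 of them was called without Dec replicate 1. Of the higher pair, 1 was called when Ctrl replicate 2, Dec replicate 1 or 2 or Dec_Sam replicate 1 or 2 was left out. The 6 genes higher with decitabine became 3 without Dec replicate 2.

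**Figure D5:**
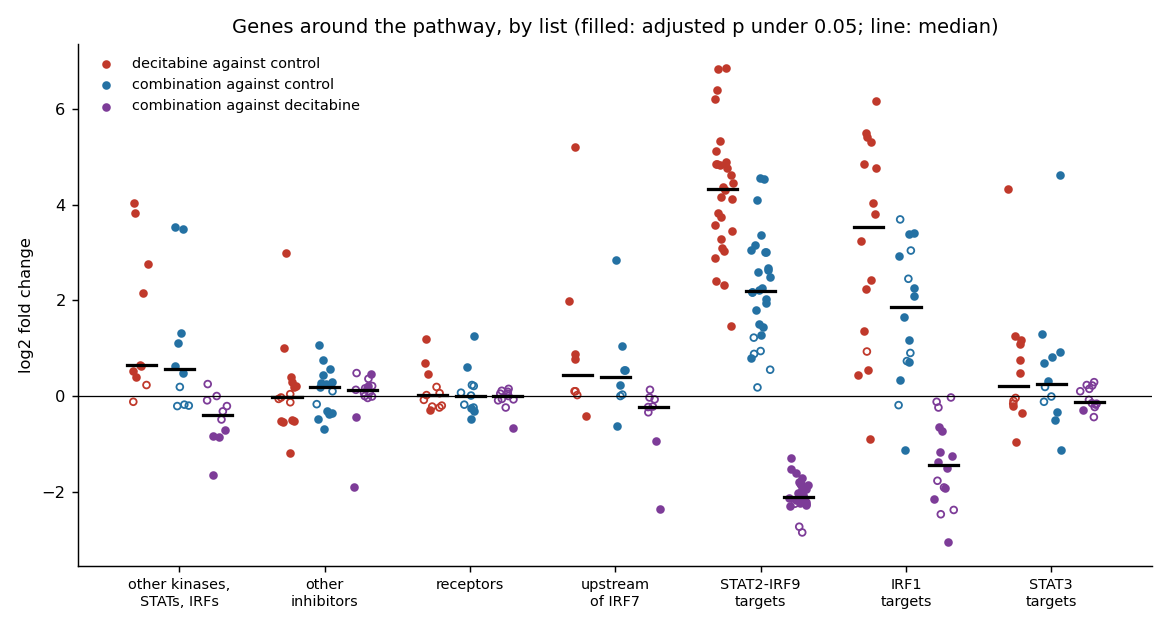
Log2 fold change of each tested gene of the 7 lists in the 3 comparisons; filled symbols passed an adjusted p of 0.05 and lines are medians. Targets of STAT2 with IRF9 and of IRF1 are high with decitabine (medians 4.34 and 3.52) and lower between the treatments (-2.12 and -1.44), while receptors, inhibitors and STAT3 targets have medians near 0.

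Across the 9 libraries, the genes whose log2 CPM ran closest to each member were sought among 11970 other genes with a mean of at least 5 CPM. These correlations are descriptions, since the 9 libraries fall into 3 treatment groups that most of these genes share. STAT2 ran closest to SP100 (Pearson r = 0.997), SAMHD1 (0.997) and IFIT3 (0.995). IRF7 was closest to IFITM1 (0.998), PTPRH (0.997) and ISG15 (0.997), and IRF9 to MAP2 (0.998), RETSAT (0.995) and MX1 (0.992). For IRF1 they were PARP9 (0.992), IFIT3 (0.988) and PARP12 (0.988), and for SOCS1 they were PTPRH (0.995), EPSTI1 (0.993) and IFITM1 (0.993). The other 3 tested members had other company. SOCS3 was closest to NFKBIA (0.975), TMEM14B and TMEM67. JAK1 was closest to ZFC3H1 (0.967) and ZFYVE26 among others, and TYK2 to VPS36 (0.995), AKT2 and GAS5. For each tested member except JAK1 and SOCS3, many further genes ran nearly as close, so the named genes are not particular to it.
Markers of blood, endothelial and stromal cells moved with the treatments as well. The 9 markers (PTPRC, CD3E, CD79A, CD14, CD68, PECAM1, CDH5, COL1A1 and LUM) summed to 50.8 to 62.7 CPM in the controls, 313 to 407 CPM with decitabine and 190 to 279 CPM with the combination treatment. Most of this was CD68, a lysosomal protein, at 38.1 to 47.8, 221 to 298 and 103 to 181 CPM in the 3 groups. The endothelial marker PECAM1 was at 9.78 to 10.3, 29.6 to 40.9 and 35.7 to 43.1 CPM. The stromal markers COL1A1, a collagen chain, and LUM, a matrix proteoglycan, were higher in every treated library than in any control, COL1A1 at 2.48 to 3.8, 42.6 to 68.5 and 36 to 54.2 CPM and LUM at 0.0987 to 0.15, 5.88 to 7.2 and 5.09 to 5.45 CPM. PTPRC, which defines blood cells, was at 0.0497 to 0.1, 0.888 to 1.27 and 0.566 to 0.98 CPM, and CD3E, which defines T cells, had at most 2 counts in a library. The part of these markers in the results was not tested. In bulk samples, a change in the number of cells that express a gene and a change in its RNA per cell cannot be told apart.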

How the data were processed

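RNA was measured in 9 libraries of PC-3 cells, 3 per group, grouped by their labels. According to the study's methods and the submitters' processing notes, reads were trimmed with Trim Galore 0.6.4, related to GRCh38.p13 and counted with kallisto. The values used here are unnormalized estimated counts for each Ensembl gene, as deposited. The authors also deposited log2 CPM values, which were not used.
Estimated counts were rounded, filtered with filterByExpr and scaled by TMM. The 18532 genes left were compared with the quasi-likelihood test of edgeR 4.0.16 in R 4.3.3, with 1 mean per group over all 9 libraries and Benjamini-Hochberg adjustment. Of 60617 identifiers, 60357 matched GENCODE release 44 (GRCh38), which gave names and positions. Totals of 21934307 to 22489684 counts set the precision, and counting intervals (exact, 95%) and the limit of 3 counts cover counting error only. Libraries of a group were no copies of each other (chi-square per degree of freedom 5.86 to 23.5). The test was tried on simulated data in which most genes were unchanged, whereas 68.8% were called here in Dec against Ctrl. Figures were drawn with matplotlib 3.10.9 in Python 3.11.15.
The members and lists were chosen with earlier results of these data known. Named genes were the 9 members, the called gene with the largest change of each list in Dec against Ctrl and Dec_Sam against Dec, all called genes where 5 or fewer were called, and the 3 genes most correlated with each member, except that some results are not reported here. IFIT3, DDX60, HERC6, PARP9, BST2, MX1, ISG15 and the neighbours of STAT3 were named after their values were seen.
Alternatives tried were other tools (DESeq2 1.42.0, or voom with limma 3.58.1), other scaling (size factors of DESeq2, or library size alone) and other filters (none, or a mean count of 10 or more). Further fits held just the 6 libraries of a comparison, used the replicate number as a block, required an absolute log2 fold change over 1, or left out each library in turn.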

Additional observations from a re-analysis of the deposited data

How the results depend on the processing

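Of the 3 comparisons, those of the 8 tested members were repeated under every alternative. Scaling by library size alone changed most: TYK2 in Dec against Ctrl went to -0.14 (adjusted p = 0.075), which left 0 members lower there, JAK1 in Dec_Sam against Ctrl turned to 0.15 (not called, adjusted p = 0.14), and 6 members were higher in that comparison, with STAT2 at 0.87, IRF1 at 0.47 and SOCS3 at 0.48 (adjusted p = 0.038, 0.015 and 0.0086). Over all genes it moved the calls in Dec against Ctrl from 6729 higher and 6030 lower to 8849 and 3746, and in Dec_Sam against Ctrl from 6647 and 5799 to 8695 and 3857. With voom and limma STAT2 in Dec_Sam against Ctrl was called at 0.57. Without a filter JAK1 in Dec against Ctrl was not called (0.16), nor was JAK1 in Dec_Sam against Dec (-0.28) with only the 6 libraries compared. With an absolute log2 fold change over 1 required, 0 members were lower in Dec against Ctrl, 0 in Dec_Sam against Ctrl and 3 in Dec_Sam against Dec.
Counts in the lists moved as well. With library size alone, receptors went from 3 to 6 higher and 1 to 0 lower in Dec against Ctrl and from 2 to 5 higher and 3 to 0 lower in Dec_Sam against Ctrl, genes upstream of IRF7 from 4 to 7 higher and 1 to 0 lower in Dec against Ctrl, and other inhibitors from 5 to 1 lower in Dec_Sam against Ctrl. STAT3 targets went from 3 to 1 lower in Dec against Ctrl. Without a filter, targets of STAT2 with IRF9 lower between the treatments went from 23 to 15 and other inhibitors higher with decitabine from 6 to 3, and with only the 6 libraries compared the former went to 4.
When each library was left out in turn, members lower in Dec_Sam against Dec numbered 2 to 6. The log2 fold changes that crossed the threshold in at least 1 such fit ranged from 0.14 to 0.22 for JAK1 in Dec against Ctrl, from 0.22 to 0.82 for STAT2 and from 0.11 to 0.46 for SOCS3 in Dec_Sam against Ctrl, and, in Dec_Sam against Dec, from -0.36 to -0.22 for JAK1, from -1.94 to -1.33 for STAT2, from -1.68 to -1.12 for IRF7 and from -1.24 to -0.70 for SOCS1. Over all genes, Dec_Sam against Dec gave 381 to 2066 higher and 480 to 1997 lower genes in these fits, against 1421 and 1487. A fit without 1 library assumes that the other 2 of its group vary like the rest.
Samples with the same replicate number correlated in their deviations from the group means by -0.02 to 0.23, those with unlike numbers by -0.22 to 0.06. Between Dec and Dec_Sam, replicates 1, 2 and 3 gave 0.23, 0.04 and 0.23 with the like number. Whether the numbers pair the samples is not known. The number as a block moved the calls over all genes in Dec_Sam against Dec from 1421 higher and 1487 lower to 1766 and 1890. With the replicate block, IRF7 in Dec_Sam against Dec was at -1.33 and no call of a member changed, while the targets of STAT2 with IRF9 called lower between the treatments went from 23 to 14 and the genes upstream of IRF7 from 2 to 4. SOCS1, with 13 to 19 counts per control library, was the tested member most limited by depth. Where no cause is given for a change between settings, the cause was not tested.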
